A study of Homo sapiens with 12 samples.

Results

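The transcriptome of HepG2, a human hepatocellular carcinoma line, was compared between 240 min and 30 min of insulin stimulation, to find which of the early changes in mRNA persisted, grew or reverted. The comparison rests on 4 RNA-seq libraries of the 12 samples in the series, 2 replicates at each time, and the 6 libraries at 0, 5 and 10 min were used to find the early changes and shared the same model. All cells were grown in EMEM with FBS and kept in EMEM for 16 h, and were then given 3 nM insulin in EMEM with BSA. The library titles give the time, whereas the treatment text gives 5 min for every library, those at 0 min included, and the times of the titles were used here. No library of cells kept for 240 min without insulin was analysed here, so that time in the changed medium and time with insulin cannot be told apart. The methods of the study describe the RNA-seq as a single experiment on biologically independent samples, while the labels do not say what separates the replicates, so p-values measure the spread between libraries of that experiment. In bulk RNA, a change in the share of cells that express a gene and a change in its mRNA per cell cannot be told apart either.

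Insulin binds a receptor tyrosine kinase and activates the PI3K-AKT pathway and the RAS-ERK pathway. AKT phosphorylates FOXO transcription factors, which then leave the nucleus, and hepatocytes switch off the gluconeogenic enzymes and other FOXO targets, while SREBP factors raise the enzymes of fatty acid and cholesterol synthesis. ERK acts within minutes on the immediate early genes, which need no new protein, and on inhibitors of its own pathway such as the Sprouty proteins and the dual-specificity phosphatases.

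Promoter sequences are shown for 4 genes on which the results below turn, namely C10orf10 and KLHL24, which fell, EGR1, whose early rise grew, and CYP1A1, which had the largest rise among called genes averaging 5 CPM or more whose replicates did not overlap. Each is the 250 bases before the RefSeq start site in GRCh38.p14, written on the strand of the gene, at chr10:44978810-44979059 (minus strand, where the gene is called DEPP1), chr3:183635373-183635622 (plus strand), chr5:138465229-138465478 (plus strand) and chr15:74725529-74725778 (minus strand). Capitals mark the motif searched for in each, on both strands. They are GTAAACA in C10orf10, a motif of FOXO and other forkhead factors, CAAAACA in KLHL24, the core of the insulin response element, a form of the CArG box of serum response factor in EGR1, in which CC and GG enclose 6 bases and the second to the fourth of these are TAT, and GCGTG in CYP1A1, the core of the xenobiotic response element of the aryl hydrocarbon receptor.
C10orf10: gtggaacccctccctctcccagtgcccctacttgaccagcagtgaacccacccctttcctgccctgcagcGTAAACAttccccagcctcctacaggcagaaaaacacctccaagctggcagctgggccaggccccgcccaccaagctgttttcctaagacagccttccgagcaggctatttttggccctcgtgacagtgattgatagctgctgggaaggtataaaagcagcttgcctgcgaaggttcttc
KLHL24: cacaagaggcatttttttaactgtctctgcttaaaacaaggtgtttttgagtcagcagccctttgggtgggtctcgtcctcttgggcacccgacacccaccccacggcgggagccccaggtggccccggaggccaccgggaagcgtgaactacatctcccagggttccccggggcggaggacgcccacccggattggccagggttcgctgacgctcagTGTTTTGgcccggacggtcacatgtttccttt
EGR1: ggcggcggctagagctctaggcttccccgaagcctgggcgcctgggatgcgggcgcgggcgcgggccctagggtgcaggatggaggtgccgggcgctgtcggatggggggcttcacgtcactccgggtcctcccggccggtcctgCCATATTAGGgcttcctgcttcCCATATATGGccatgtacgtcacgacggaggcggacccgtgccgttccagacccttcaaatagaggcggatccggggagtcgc
CYP1A1: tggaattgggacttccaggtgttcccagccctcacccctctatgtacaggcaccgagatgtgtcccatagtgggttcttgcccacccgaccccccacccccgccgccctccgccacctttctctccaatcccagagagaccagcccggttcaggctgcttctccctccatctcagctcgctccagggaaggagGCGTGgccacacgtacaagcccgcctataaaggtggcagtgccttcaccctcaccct

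Counted from the start site, GTAAACA lay at -180 to -174 in C10orf10, and CAAAACA at -32 to -26 in KLHL24, on the opposite strand. The 2 CArG-like matches of EGR1 lay at -105 to -96 and at -83 to -74. The GCGTG of CYP1A1 lay at -57 to -53, and overlapped no match of the other motifs. Matches left unmarked were GCGTG at -108 to -104 in KLHL24, and TATAAA at -31 to -26 in C10orf10 and at -32 to -27 in CYP1A1. Among the 27305 promoters of the same length, 1 per gene, 2.98% held GTAAACA, 4.34% held CAAAACA, 1.03% held this form of the CArG box and 31.9% held GCGTG. The list of 14 FOXO targets outside gluconeogenesis described below does not include C10orf10. Of its 12 members with a promoter in this set, 0 held GTAAACA and 1 held CAAAACA. Among the other lists below, this CArG form was in 2 of 17 promoters of immediate early transcription factors. GCGTG was in 3 of 5 promoters of aryl hydrocarbon receptor targets, but also in 6 of 8 of reference genes and 14 of 16 of cholesterol synthesis genes. These matches describe the letters in these windows and are not binding sites.

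Reads counted on genes numbered 18347109 to 28087570 in the 4 libraries at 30 and 240 min, and 13852 of the 26364 genes passed edgeR's filter on low counts and were tested. Between replicates of 1 time the counts varied beyond sampling noise (chi-square over its degrees of freedom, 6.17 to 6.46). In a principal component analysis of all 10 libraries, the first component held 57.1% of the variance, on which the 240 min libraries lay at 29.9 and 29.2 and the other 8 between -8.84 and -6.01. The hepatocyte markers named for the cell check, from ALB to HNF4A, were all expressed. Of 16 markers of blood, endothelial, stromal, muscle and epithelial cells, 7 passed the filter, with EPCAM, ACTA2 and CD68 holding most of the reads, and PTPRC and PPBP had 0 counts in every library. The summed expression of the 16 markers was 379 and 388 counts per 1000000 (CPM) at 30 min and 375 and 375 CPM at 240 min.

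At 240 min, 5297 of the 13852 genes differed from 30 min at an adjusted p-value under 0.05, which is 38.2% of the genes tested (quasi-likelihood test of edgeR, adjusted by Benjamini-Hochberg). Of these, 2743 were higher (19.8% of all tested) and 2554 were lower (18.4%). Most of the changes were small, with a median size of 0.35 on the log2 scale among the genes called, and 198 rises and 122 falls were larger than 1. By comparison 46 genes (0.332%) had differed between 30 min and 0 min, 0.188% of all tested being higher and 0.144% lower. Between 10 min and 0 min 19 genes (0.137%) had differed, 0.0433% of all tested being higher and 0.0938% lower. With libraries scaled by the ERCC spike-ins in place of TMM, 572 genes were higher and 344 lower, while the median log2 fold change of all genes was 0.01. The 24 largest rises and falls named below kept their calls with this scaling. In 65.9% of all genes both 240 min libraries lay on the same side of both 30 min libraries.

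The 12 largest falls were headed by C10orf10 and IGFBP1, whose decrease had begun earlier. C10orf10 (chromosome 10, 45471709 to 45474330, minus strand, hg19), which encodes a small protein known as a FOXO target, was expressed at 88.3 and 97.7 CPM at 0 min, 62.3 and 54.2 CPM at 30 min and 7.28 and 7.52 CPM at 240 min. The libraries at 240 min were the lowest of the series by a wide margin, and the level was 7.91-fold lower than at 30 min (log2 fold change -2.98, standard error 0.0934, adjusted p = 4.18e-14, edgeR). IGFBP1 (chromosome 7, 45927959 to 45933267, plus strand), a secreted protein that binds insulin-like growth factors and is repressed by insulin in liver, was at 270.1 and 290.2 CPM at 0 min, 222 and 217 CPM at 30 min and 36.7 and 39.9 CPM at 240 min. It fell 5.75-fold after 30 min (-2.52, standard error 0.0675, adjusted p = 4.48e-15).

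The other 10 falls showed no call at 10 or 30 min. G6PC (chromosome 17, 41052814 to 41066450, plus strand), the glucose-6-phosphatase that releases glucose from the liver, was at 46.9 and 31.8 CPM at 30 min and at 10.2 and 5.57 CPM at 240 min (-2.29, standard error 0.206, adjusted p = 7.14e-08). On the log scale its replicates were further apart than those of the other 11 falls at both times. KLHL24 (chromosome 3, 183353411 to 183402304, plus strand), an adaptor of a cullin ubiquitin ligase, went from 37.2 and 39.5 CPM to 9.12 and 9.52 CPM (-2.04, adjusted p = 9.41e-12). HBP1 (chromosome 7, 106809406 to 106842974, plus strand), an HMG-box repressor of the cell cycle, went from 59.4 and 60.6 CPM to 14.8 and 15.8 CPM (-1.97). CCNG2 (chromosome 4, 78078357 to 78091213, plus strand), an atypical cyclin linked to cell cycle arrest, went from 37.6 and 36.1 CPM to 10.2 and 11.8 CPM (-1.75). In each of these genes the 240 min libraries lay below all 8 earlier libraries. FST, the activin-binding protein follistatin, went from 114 and 103 CPM to 30.98 and 29.9 CPM (-1.83). SLC1A2, a glutamate transporter, went from 132 and 106 CPM to 38.9 and 28.4 CPM (-1.805). FAXDC2 (-2.03), ZSWIM4 (-1.79), UBALD2 (-1.74) and YPEL2 (-1.72) complete the 12, with adjusted p-values from 9.41e-12 to 3.91e-07.

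Of the 12 largest rises, 9 were in genes with no call at 10 or 30 min. CYP1A1 (chromosome 15, 75011883 to 75017877, minus strand), the cytochrome P450 induced through the aryl hydrocarbon receptor, stood at 10.9 and 9.65 CPM at 0 min, 10.4 and 10.4 CPM at 30 min and 45.2 and 54.4 CPM at 240 min. No earlier library came near the 2 at 240 min, and the rise was 4.76-fold (log2 fold change 2.25, standard error 0.111, adjusted p = 2.04e-11). GPCPD1 (chromosome 20, 5525080 to 5591672, minus strand), a glycerophosphocholine phosphodiesterase, went from 11.6 and 14.3 CPM to 44.2 and 48.5 CPM (1.85, adjusted p = 2.04e-11). CXCL8 (chromosome 4, 74606223 to 74609433, plus strand), the neutrophil chemokine interleukin-8, went from 12.1 and 13.99 CPM to 32.2 and 43.8 CPM (1.54, adjusted p = 3.40e-08). LRP8 (chromosome 1, 53708041 to 53793821, minus strand), a receptor of the signaling protein reelin, went from 30.8 and 30.4 CPM to 84.4 and 82.4 CPM (1.45). HMGCS1 (chromosome 5, 43287572 to 43313614, minus strand), which makes HMG-CoA for cholesterol synthesis, went from 849 and 765 CPM to 2046 and 1899 CPM (1.29, adjusted p = 3.32e-10). In these 5 genes both 240 min libraries lay above every earlier library. NR4A1 (1.36), an orphan nuclear receptor among the immediate early genes, KBTBD8 (1.45), TRIM36 (1.23) and RASD1 (1.204) were the others. The remaining 3 of the 12, PDP2, HNRNPU-AS1 and IER3, had fallen by 30 min and are described with the early genes.

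**Figure D1:**
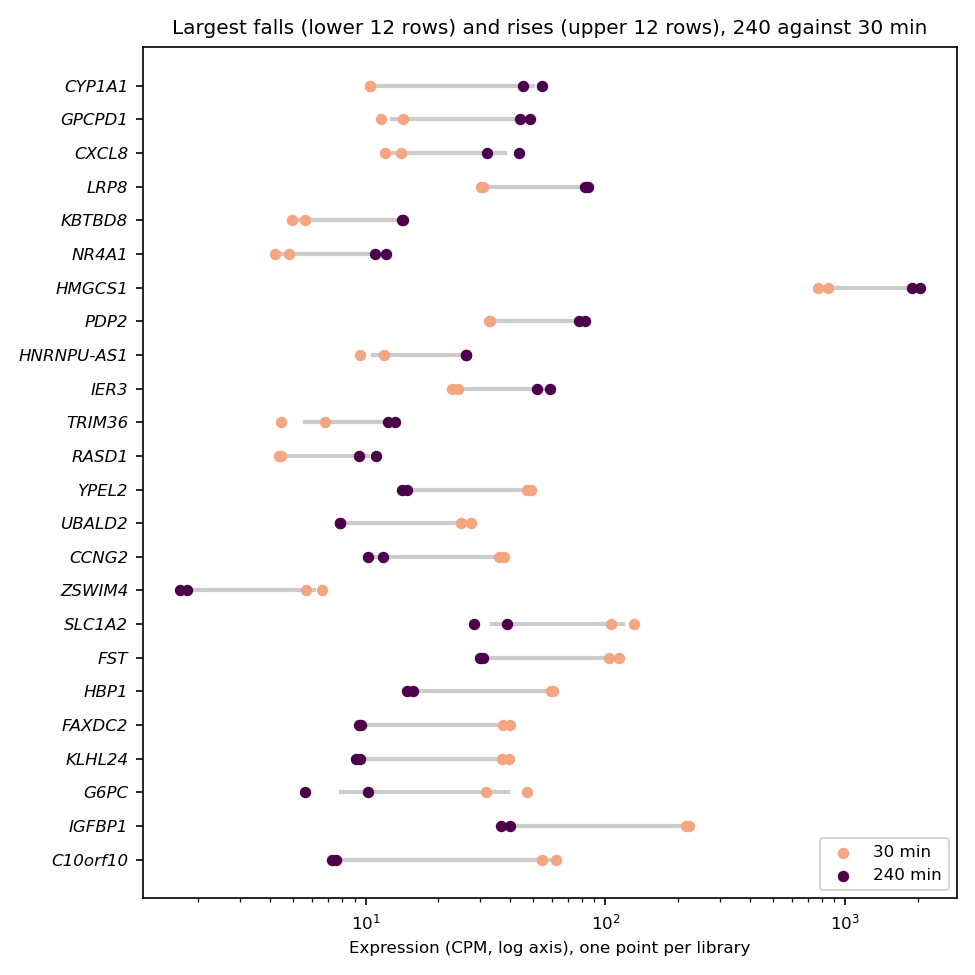
Expression of the 12 genes with the largest rises (upper rows) and the 12 with the largest falls (lower rows) between 30 and 240 min, in CPM on a log axis, with 1 point per library and a gray bar between the means of the 2 replicates. The 2 times do not overlap in any of these genes, which the rule that chose them required, and the widest gaps are those of C10orf10 (log2 fold change -2.98), IGFBP1 (-2.52), G6PC (-2.29) and CYP1A1 (2.25).

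The 46 genes called at 30 min against 0 min, 26 of them higher and 20 lower, were followed to 240 min. An early change was said to have grown when the gene was called between 30 and 240 min in the same direction, and to have reverted when it was called in the opposite direction. The change grew in 12 genes (8 that had risen and 4 that had fallen), reverted in 20 (9 and 11) and had no call after 30 min in 14 (9 and 5). Both comparisons share the 30 min libraries, so that a library that happened to be high or low at 30 min would enter each with opposite sign, and these counts are a description. A view that does not share them compares 240 min with 5 min, in which 38.1% of all genes were called (19.7% higher and 18.4% lower). Changes already made in the 5 min libraries, which had been given insulin, do not show in this view. There the 46 genes were called in the direction of their early change in 23 (15 that had risen and 8 that had fallen), in the opposite direction in 10 (4 and 6), and not called in 13. All 12 genes whose change grew were among the 23, as were 10 of the 14 with no call after 30 min and 1 of the 20 that reverted. With ERCC scaling 3 of the 46 grew (C10orf10, IGFBP1 and ZNF367), 11 reverted (ARRDC3, MYLIP, ID1, KLF11, SPRY4, IER3, PDP2, HNRNPU-AS1, TRIB1, C8orf4 and HS3ST3B1) and 32 had no call.

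The 19 genes called at 10 min against 0 min came from a contrast without the libraries at 30 and 240 min, although these entered the filter and the estimate of the spread. Of these, 16 were also among the 46, which is 84.2% of the 19 and 34.8% of the 46. Between 30 and 240 min, 12 of the 19 were called against their early direction and 4 along it, beside 38.2% of all genes called in either direction. The 13 genes that were lower at 10 min split into 10 that reverted and 3 that fell further, with 0 left without a call. The 6 that were higher at 10 min split into 2 that reverted (MYLIP and ARRDC3), 1 that rose further (ZNF57) and 3 with no call (SMAD7, ID2 and AMOTL2).

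**Figure D2:**
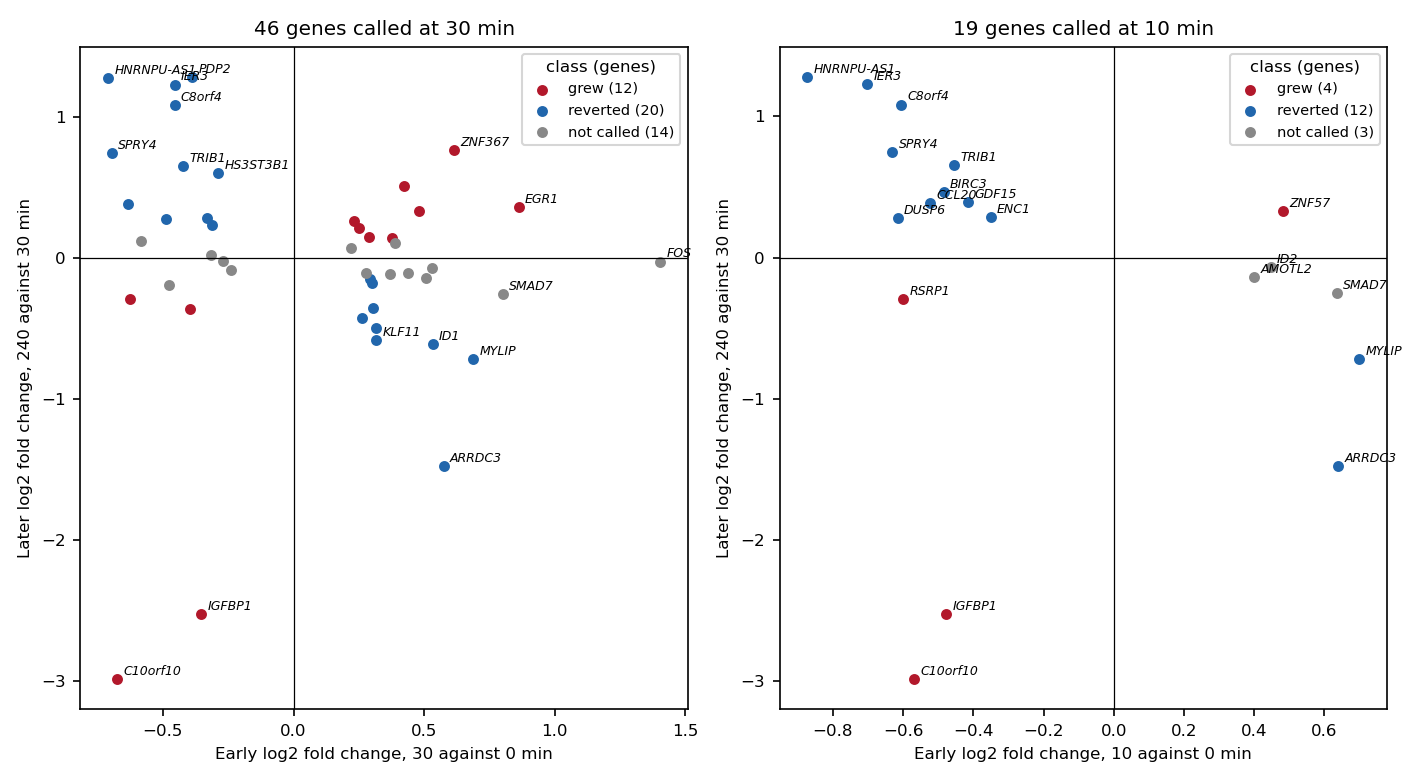
Log2 fold change between 30 and 240 min against the early log2 fold change, at 30 min for 46 genes (left) and at 10 min for 19 genes (right), 1 point per gene, colored by whether the early change grew, reverted or had no call. The left panel shares the 30 min libraries between its axes and the right panel does not, and in the right panel 10 of the 13 genes that fell early lie above 0.

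Among the early rises that grew, the transcription factor genes EGR1 and ZNF367 had the largest early rises. EGR1 (chromosome 5, 137801181 to 137805004, plus strand), a zinc finger factor of the immediate early class, was at 25.8 and 20.5 CPM at 0 min, 14.5 and 15.4 CPM at 10 min, 47.5 and 34.3 CPM at 30 min and 49.5 and 56.9 CPM at 240 min. The replicates at 30 min lay apart, with the higher just under the lower replicate at 240 min, and the later rise was 0.36 on the log2 scale (standard error 0.112, adjusted p = 0.0146). The rise was 0.63 without 30 min replicate 1, and its call was lost with DESeq2 (adjusted p = 0.135), with limma on TPM, without 30 min replicate 2 (0.16, adjusted p = 0.249) and without 240 min replicate 2 (adjusted p = 0.131). The level at 240 min was nevertheless above that at 5 min (1.29, adjusted p = 9.75e-08). ZNF367 (chromosome 9, 99148225 to 99180669, minus strand), a zinc finger factor, climbed from 9.84 and 9.74 CPM at 0 min to 15.8 and 14.04 CPM at 30 min and 25.9 and 24.98 CPM at 240 min (0.77 after 30 min, adjusted p = 5.73e-06). PARD6B (chromosome 20, 49348081 to 49370278, plus strand), a cell polarity protein, went from 20.8 and 21.5 CPM at 0 min to 27.8 and 29.2 CPM and then 37.02 and 44.4 CPM (0.51, adjusted p = 5.95e-05). ZNF57 (0.33), CIRBP, a cold-inducible RNA-binding protein (0.27), ZNF3 (0.21), FOXQ1, a forkhead factor (0.15), and ZFP36L2, which promotes the decay of AU-rich mRNAs (0.14), rose further by smaller amounts. The calls of FOXQ1 and ZFP36L2 were lost in the model of only the 30 and 240 min libraries (adjusted p = 0.06195 and 0.101), and without 240 min replicate 1 (adjusted p = 0.103 and 0.333, with ZFP36L2 at 0.0831). That of FOXQ1 was lost also without 30 min replicate 1, and that of ZFP36L2 with DESeq2 and without 30 min replicate 2 or either 10 min replicate.

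The early falls that grew were C10orf10 and IGFBP1, described above, with FILIP1L and RSRP1. FILIP1L (chromosome 3, 99551988 to 99833357, minus strand), a filamin-interacting protein, was at 201 and 219 CPM at 0 min, 146 and 175 CPM at 30 min and 117 and 133 CPM at 240 min (-0.36, adjusted p = 0.00124, and -0.23 without 30 min replicate 2). RSRP1 (chromosome 1, 25568740 to 25573985, minus strand), an arginine- and serine-rich protein, was at 15.4 and 17.2 CPM, 10.6 and 10.8 CPM and 8.16 and 9.41 CPM at these times (-0.29, adjusted p = 0.0417). The call of its further fall was lost with DESeq2 (adjusted p = 0.112), with upper-quartile normalization, in the model of only the 30 and 240 min libraries, and without either 30 min replicate or 240 min replicate 1 (-0.18 and adjusted p = 0.342 without the last), while against 5 min it was lower by a wider margin (-0.97, adjusted p = 4.72e-07).

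The early rises that reverted were led by ARRDC3, MYLIP and ID1. ARRDC3 (chromosome 5, 90664541 to 90679149, minus strand), an alpha-arrestin that directs membrane proteins to endocytosis and degradation, was at 61.8 and 56.8 CPM at 0 min, 92.04 and 91.9 CPM at 10 min, 87.01 and 88.9 CPM at 30 min and 30.9 and 32.4 CPM at 240 min. It passed below its starting level, 2.78-fold lower than at 30 min (-1.48, standard error 0.0618, adjusted p = 3.00e-12) and lower than at 5 min too (-1.05, adjusted p = 3.45e-10). MYLIP (chromosome 6, 16129317 to 16148478, plus strand), the ubiquitin ligase IDOL, was at 11.97 and 9.86 CPM at 0 min, 16.8 and 18.02 CPM at 10 min, 16.3 and 18.3 CPM at 30 min and 10.4 and 10.6 CPM at 240 min (-0.72, adjusted p = 2.60e-05). ID1 (chromosome 20, 30193086 to 30194317, plus strand), an inhibitor of basic helix-loop-helix factors and a target of BMP signaling, was at 18.5 and 22.7 CPM, 30.1 and 30.4 CPM and 17.9 and 22.1 CPM at 0, 30 and 240 min (-0.61, adjusted p = 6.99e-05). For MYLIP and ID1 the difference between 240 and 5 min was not called (-0.24, adjusted p = 0.09901, and 0.02, adjusted p = 0.933). KLF11 (-0.58 after 30 min), ZNF503 (-0.50) and ZMAT3 (-0.42) ended below their 5 min level, with ARRDC3 the 4 risers that were called opposite there. NR2F2 (-0.17) and SOX9 (-0.15) had no call against 5 min. The calls of NR2F2 and SOX9 between 30 and 240 min were lost with upper-quartile normalization (adjusted p = 0.0591 and 0.075997), with limma on TPM, and without either 30 min replicate or 240 min replicate 2 (NR2F2 at -0.104). That of NR2F2 was lost also with DESeq2, and that of SOX9 in the model of only the 30 and 240 min libraries.

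Among the early falls that reverted were inhibitors and readouts of the ERK pathway. SPRY4 (chromosome 5, 141689992 to 141704620, minus strand), a Sprouty inhibitor of receptor tyrosine kinase signaling, was at 57.9 and 49.98 CPM at 0 min, 34.2 and 34.9 CPM at 10 min, 32.9 and 33.2 CPM at 30 min and 52.8 and 58.3 CPM at 240 min. It returned to about its level at 0 min, with a rise of 1.68-fold after 30 min (0.75, standard error 0.0749, adjusted p = 2.44e-07) and no call against 5 min (0.17, adjusted p = 0.0651). DUSP6 (chromosome 12, 89741602 to 89746636, minus strand), the cytoplasmic phosphatase of ERK, was at 138 and 132 CPM, 85.8 and 90.1 CPM, 97.5 and 94.2 CPM and 115 and 118 CPM at the same times (0.28, adjusted p = 3.27e-04). It recovered in part and was the reverting gene that was still called in its early direction against 5 min (-0.19, adjusted p = 0.00696). IER3, an immediate early gene that modulates ERK signaling and survival, was at 33.04 and 31.6 CPM, 18.4 and 21.2 CPM, 22.9 and 24.2 CPM and 51.8 and 59.0000 CPM, and so ended above every earlier library (1.23 after 30 min, adjusted p = 8.04e-10, and 0.93 against 5 min, adjusted p = 1.96e-08).

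The remaining falls that reverted were of varied function. PDP2 (chromosome 16, 66914383 to 66925002, plus strand), a phosphatase that activates the pyruvate dehydrogenase complex, was at 45.5 and 41.2 CPM at 0 min, 33.02 and 32.8 CPM at 30 min and 82.4 and 77.8 CPM at 240 min (1.28, adjusted p = 2.87e-11). HNRNPU-AS1 (chromosome 1, 245003940 to 245010243, minus strand) was at 15.7 and 19.1 CPM, 11.9 and 9.52 CPM and 26.3 and 26.1 CPM (1.28, adjusted p = 6.66e-08). Its name marks it as antisense to HNRNPU, but whether its counts are antisense to that gene was not tested. TRIB1, a pseudokinase that brings the factor C/EBPA to degradation, was at 108 and 102 CPM, 75.2 and 81.9 CPM and 122 and 126 CPM (0.66, adjusted p = 4.01e-08). With IER3, C8orf4 (1.08) and HS3ST3B1, a heparan sulfate sulfotransferase (0.60), these are the 6 early falls that ended above their 5 min level. ENC1 (0.29), E2F1, a factor of the G1 to S transition (0.24), and ZSWIM3 (0.39) returned without a call against 5 min. The calls of E2F1 and ZSWIM3 between 30 and 240 min were lost without 30 min replicate 2 (adjusted p = 0.0809 and 0.138) and without 240 min replicate 1 (adjusted p = 0.0944 and 0.0979), and that of ZSWIM3 also with DESeq2, in the model of only the 30 and 240 min libraries and without 240 min replicate 2. The 3 genes called at 10 min alone, GDF15 (0.39), BIRC3 (0.46) and CCL20 (0.39), had fallen at 10 min and rose between 30 and 240 min, the adjusted p-values being 3.78e-04, 3.49e-04 and 8.16e-04, with CCL20 at 0.25 without 240 min replicate 1.

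**Figure D3:**
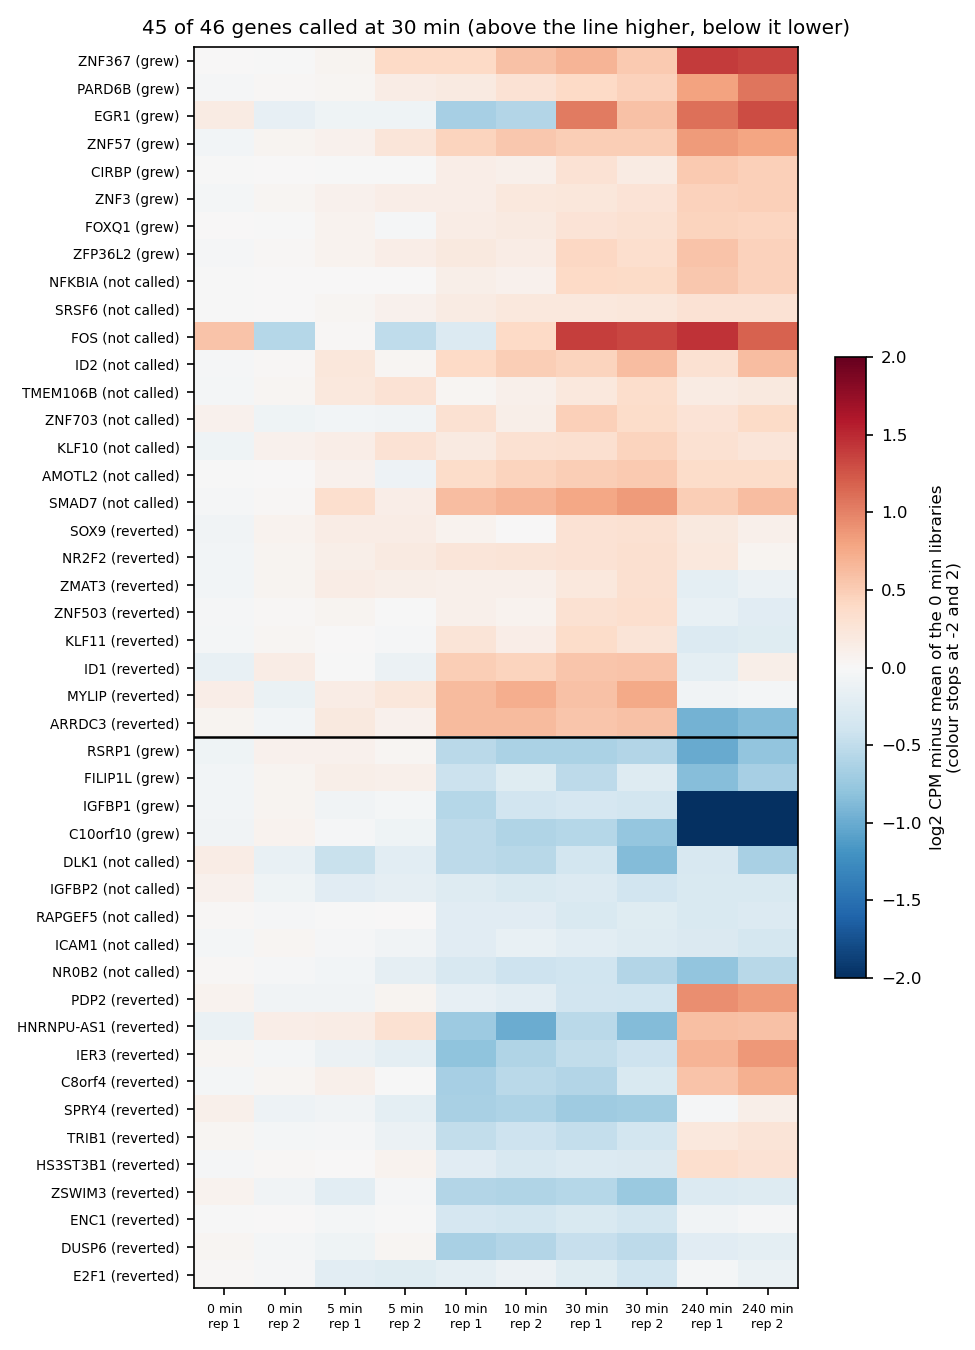
Expression of 45 of the 46 genes called at 30 min in each of the 10 libraries, as log2 CPM minus the mean of the 0 min libraries (red higher, blue lower), with 25 early rises above the line and the 20 early falls below it and the later class of each gene in brackets. The libraries at 30 min and those at 240 min lie on opposite sides of the 0 min mean for, among others, ARRDC3, PDP2, HNRNPU-AS1, IER3 and C8orf4, and C10orf10 and IGFBP1 reach the end of the color scale at 240 min.

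Early changes with no call between 30 and 240 min included that of FOS. FOS (chromosome 14, 75745481 to 75748937, plus strand), the immediate early partner of JUN in AP-1, was at 2.55 and 1.15 CPM at 0 min, 1.42 and 2.26 CPM at 10 min, 4.45 and 4.32 CPM at 30 min and 4.68 and 3.89 CPM at 240 min. The later log2 fold change was -0.02 with a standard error of 0.239 (adjusted p = 0.9496), and the level at 240 min was above that at 5 min (1.53, adjusted p = 3.50e-04). SMAD7 (chromosome 18, 46446223 to 46477081, minus strand), the inhibitory SMAD of TGF-beta and BMP signaling, was at 7.14 and 7.43 CPM, 12.5 and 13.1 CPM and 10.3 and 11.2 CPM at 0, 30 and 240 min (-0.25, standard error 0.103, adjusted p = 0.0586), and was called lower at 240 min with the likelihood ratio test (adjusted p = 0.0458). NFKBIA (chromosome 14, 35870716 to 35873960, minus strand), the inhibitor of NF-kappaB, was at 76.8 and 77.6 CPM, 102 and 100.5 CPM and 112 and 106 CPM (0.11, adjusted p = 0.08003), and was called higher with upper-quartile normalization and with limma on TPM. ID2, AMOTL2, ZNF703 and SRSF6 were the other early rises still above 5 min at 240 min, with log2 fold changes against 5 min of 0.33, 0.37, 0.39 and 0.23. Of the early falls, NR0B2, the corepressor SHP (-0.56 against 5 min), ICAM1, an adhesion molecule (-0.27), and RAPGEF5 (-0.29) were still lower. The call of NR0B2 after 30 min appeared without 30 min replicate 2 (adjusted p = 0.0403) and without 240 min replicate 2 (adjusted p = 0.0241). KLF10, TMEM106B, IGFBP2 and DLK1 were called neither after 30 min nor against 5 min. Without 30 min replicate 1 the change after 30 min was 0.40 for DLK1 and -0.17 for TMEM106B. Against 0 min, whose libraries had also served to choose them, these genes were called at 240 min in their early direction (0.26, 0.18, -0.30 and -0.46).

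**Figure D4:**
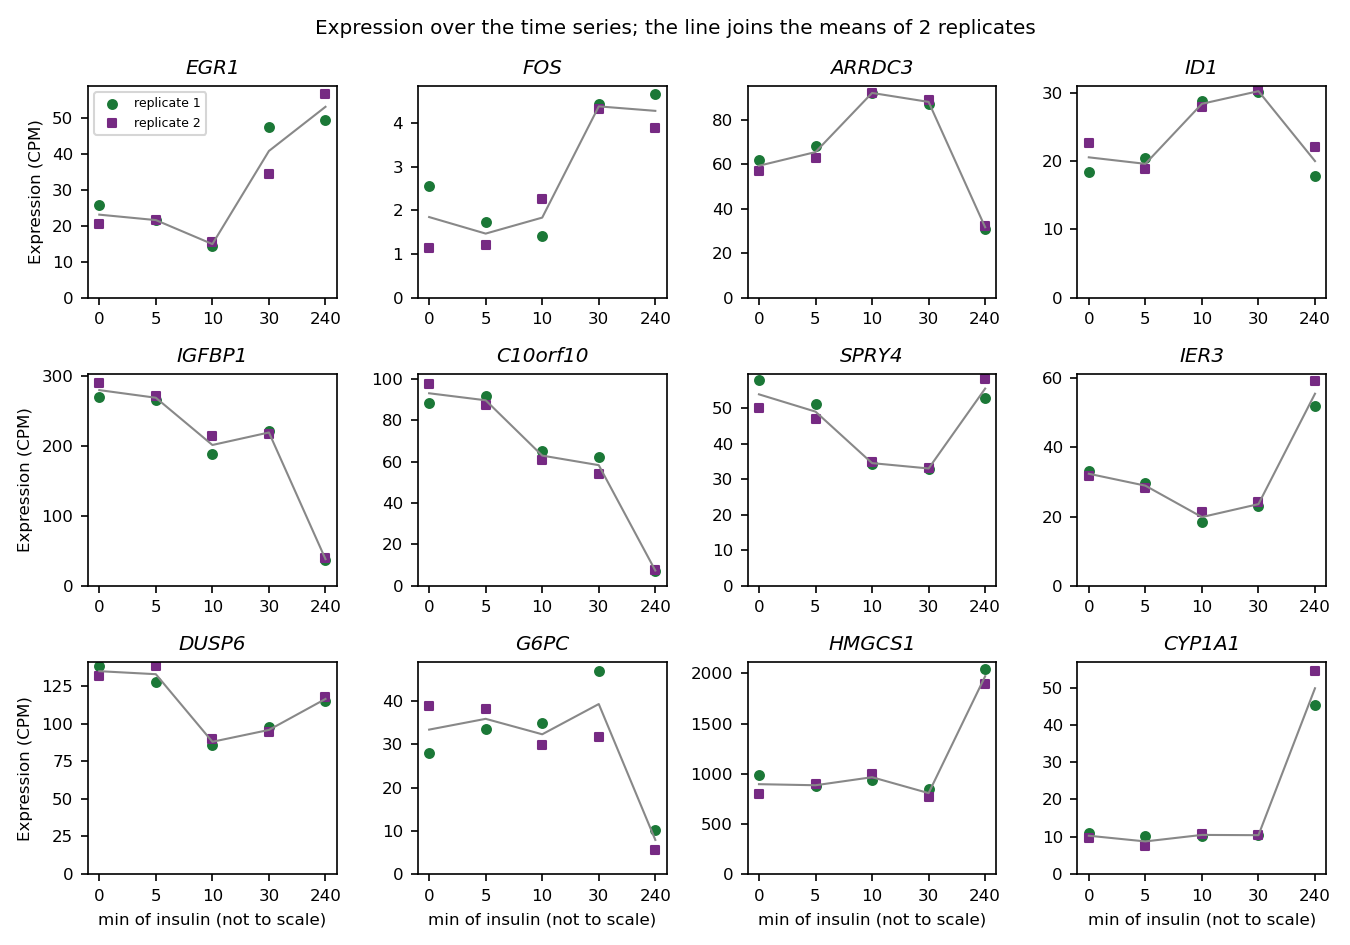
Expression in CPM of 12 genes in each library at 0, 5, 10, 30 and 240 min of insulin (times evenly spaced, not to scale), with a line through the means of 2 replicates. The early rises of EGR1 and FOS are still present at 240 min and those of ARRDC3 and ID1 are not, IGFBP1 and C10orf10 fall early and fall further, SPRY4, IER3 and DUSP6 dip and come back, and G6PC, HMGCS1 and CYP1A1 move after 30 min.

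The targets of FOXO showed the most uniform decrease among the gene lists examined. Of 14 FOXO targets outside gluconeogenesis that were tested, 12 fell and 0 rose between 30 and 240 min (85.7% lower, beside 18.4% of all genes). Their median log2 fold change was -0.59, against -0.00015 over all genes tested. At 30 min against 0 min only IGFBP1 of these 14 had been called. PIK3IP1, an inhibitor of PI3K, went from 17.6 and 17.3 CPM to 5.997 and 8.62 CPM (-1.28, adjusted p = 1.83e-07). IRS2, an adaptor of the insulin receptor, went from 1.87 and 2.28 CPM to 1.04 and 0.894 CPM (-1.07, adjusted p = 0.00521). ERBB3, a receptor of the EGFR family, was at 566 and 558 CPM and then at 367 and 352 CPM (-0.64, adjusted p = 5.45e-08). SESN3 (-0.22) and BNIP3 (-0.16) were the 2 members without a call. SESN3 was called lower without 30 min replicate 1 (-0.42, adjusted p = 0.0104), and BNIP3 with limma on TPM and without 240 min replicate 1 (-0.27, adjusted p = 0.0156). With ERCC scaling 7 of the 14 kept a call, all lower, at a median of -0.57.

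Of 23 proteins of insulin signaling, 11 were lower (47.8%, beside 18.4% of all genes) and 2 higher (8.7%, beside 19.8%), with a median of -0.13. INSR (chromosome 19, 7112266 to 7294011, minus strand), the insulin receptor, which is also among the FOXO targets, was at 217 and 205 CPM at 30 min and 144 and 132 CPM at 240 min (-0.61, standard error 0.0563, adjusted p = 8.37e-08). IRS2 (-1.07), described with the FOXO targets, is likewise in both lists. IGF1R, the related receptor of IGF1, went from 235 and 230.000 CPM to 149.8 and 151 CPM (-0.63, adjusted p = 1.33e-08). PDPK1, the kinase that activates AKT, was lower by a like amount (-0.62), as were IRS1 (-0.49) and PIK3CA, a catalytic subunit of PI3K (-0.54). Among the inhibitors of the pathway, a fall was called in TSC1 (-0.61). PIK3R1, the regulatory subunit of PI3K, rose from 89.6 and 96.1 CPM to 123 and 116 CPM (0.37, adjusted p = 1.75e-05), and the other rise, in RHEB (0.23), was lost with DESeq2 (adjusted p = 0.119), with several other settings and without 30 min replicate 1 (0.0636, adjusted p = 0.636) or 240 min replicate 1, and stood at 0.39 without 30 min replicate 2. With ERCC scaling 5 of the 23 were called, all lower, and IRS1, PIK3CA and PIK3R1 were not among them. None of the 23 had been called at 30 min.

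Of 8 gluconeogenic genes, 5 fell and 0 rose (62.5% lower, beside 18.4% of all genes, median -0.32). After G6PC, described above, PCK1, the cytosolic PEP carboxykinase, fell from 14.1 and 11.03 CPM to 5.36 and 4.31 CPM (-1.38, adjusted p = 2.78e-07). PPARGC1A, the coactivator of the program, went from 32.8 and 29.2 CPM to 18.7 and 16.6 CPM (-0.81, adjusted p = 6.33e-07), and PC (-0.36) and FOXO1 (-0.28) fell by less. SLC37A4, PCK2 and FBP1 had no call, and none of the 8 had been called at 30 min. With ERCC scaling 3 of the 8 were called lower.

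The lipogenic genes moved the other way, with 10 of 14 higher and 1 lower (71.4% and 7.14%, beside 19.8% and 18.4% of all genes, median 0.24). SREBF1, which encodes the factor SREBP1, was at 47.9 and 38.6 CPM at 30 min and 61.1 and 61.5 CPM at 240 min (0.49, adjusted p = 1.19e-04). FASN, the fatty acid synthase, was at 1015 and 856 CPM and then 1251 and 1251 CPM (0.42, adjusted p = 4.74e-04). PNPLA3 (0.49) and SCD (0.34) rose too, and MLXIPL, the glucose-responsive factor ChREBP, fell (-0.27), which was lost without 30 min replicate 1 (-0.16, adjusted p = 0.0957). With libraries scaled by the ERCC spike-ins, 0 of the 14 were called, at a median of 0.26. TIMM22, a mitochondrial import protein set beside them because the study examined it, rose by 0.39 (adjusted p = 0.00126).

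Cholesterol synthesis genes rose by more, with 15 of 22 higher and 0 lower (68.2% higher, beside 19.8% of all genes, median 0.44). Among the largest increases were those of HMGCS1 at 1.29, IDI1, which went from 218 and 219 CPM to 461 and 435 CPM (1.04, adjusted p = 8.04e-10) and MVD (0.78), enzymes of the mevalonate pathway. SREBF2, PMVK, FDPS and HSD17B7 were among the 7 with no call. With ERCC scaling 7 of the 22 were called, all higher.

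Ribosome biogenesis genes rose in the largest share, 25 of 30 (83.3%, beside 19.8% of all genes), with 0 lower and a median of 0.45. With ERCC scaling they rose in 10 of 30. RRS1 went from 30.4 and 29.2 CPM to 57.05 and 54.6 CPM (0.90, adjusted p = 2.74e-08), NOP16 from 19.5 and 20.2 CPM to 35.9 and 35.2 CPM (0.84) and NOP58, a core protein of box C/D snoRNPs, from 121 and 128 CPM to 209.8 and 194 CPM (0.70). MYC, a factor that drives these genes in many cells, was at 166 and 155 CPM and 167 and 158 CPM, and was not called (0.02, standard error 0.0512, adjusted p = 0.762). Of 20 aminoacyl-tRNA synthetases 5 rose and 1 fell (25% and 5%, beside 19.8% and 18.4% of all genes, median 0.02, and between -0.01 and 0.05 over the alternatives), with FARSB at 0.72. The share that rose was close to that of all genes. Of 17 genes of the ATF4 response and serine synthesis 6 rose and 1 fell (35.3% and 5.88%, beside 19.8% and 18.4% of all genes, median 0.13). The share called, 41.2%, was near the 38.2% of all genes, and with ERCC scaling 2 rose and 0 fell. DDIT4 stood at 0.85 and TRIB3 at 0.84, and ATF4 itself was not called (0.04, adjusted p = 0.655).

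Of 20 G1 cyclins and replication licensing genes, 15 rose and 0 fell (75% higher, beside 19.8% of all genes, median 0.31), against 6 and 0 with ERCC scaling. CDC25A, a phosphatase that activates CDK2, went from 23.2 and 23.5 CPM to 49.8 and 49.1 CPM (1.08, adjusted p = 8.04e-10). CCNE2 and CCNE1, the E-type cyclins, rose by 1.07 and 0.92, and CDC6, which loads the MCM helicase, went from 54.9 and 52.5 CPM to 114 and 108 CPM (1.05, adjusted p = 5.95e-10). CCND1, the D-type cyclin, rose by a smaller amount (0.27, and 0.18 without 240 min replicate 2), and E2F1, lower at 30 min, is the member of this list that had been called early.

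The immediate early transcription factors mostly rose or had no call after 30 min. Of 22 tested, 10 rose, 1 fell and 11 had no call (45.5% higher and 4.55% lower, beside 19.8% and 18.4% of all genes, median 0.27). At 30 min 3 had been called (EGR1, FOS and KLF10, each higher). EGR3 had the largest log2 fold change of the list (3.199, adjusted p = 6.49e-05) on low counts, at 0.251 and 0.146 CPM at 30 min and 1.88 and 1.998 CPM at 240 min. NR4A1 went from 4.81 and 4.18 CPM to 12.2 and 10.99 CPM, ATF3 from 9.15 and 11.2 CPM to 21.8 and 19.7 CPM (1.05, adjusted p = 1.04e-06) and JUN from 48.9 and 52.8 CPM to 97.8 and 96.4 CPM (0.94, adjusted p = 2.78e-09). FOSL2 fell (-0.44, adjusted p = 9.68e-05). Of 15 ERK feedback regulators 40% were called, close to the 38.2% of all genes. They were 4 that rose (IER3, SPRY4, PHLDA1 and DUSP6) and 2 that fell (ETV5 at -0.53 and SPRED2 at -0.36), with a median of -0.02 that ran from -0.05 to 0.09 over the alternatives. Of 7 mRNA decay and anti-proliferative factors 4 rose, led by BTG2 (0.66) and ZFP36L1 (0.58), and 2 fell, BTG1 (-0.90) and TOB1 (-0.53), with a median of 0.14. These shares were 57.1% and 28.6%, beside 19.8% and 18.4% of all genes.

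Targets of BMP and TGF-beta, of which ID1, ID2 and SMAD7 had risen by 30 min, had 3 of 9 lower and 1 higher at 240 min (44.4% called, near the 38.2% of all genes, median -0.25). The falls were in TGIF1 (-0.67), ID1 and BAMBI (-0.33, lost with limma on TPM, and with adjusted p = 0.138 without 30 min replicate 2 and 0.167 without 240 min replicate 1), and the rise was in SKIL (0.36). Of 5 alpha-arrestins 2 fell and 0 rose (40% called, near the 38.2% of all genes), with a median of -0.00056 that ran from -0.10 to 0.06 over the alternatives. Beside ARRDC3, TXNIP, an inhibitor of glucose uptake, went from 298 and 299 CPM to 154 and 179.7 CPM (-0.84, adjusted p = 5.57e-09), whereas ARRDC1, ARRDC2 and ARRDC4 had no call.

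Of 5 tested targets of the aryl hydrocarbon receptor, 3 rose and 0 fell (60% higher, beside 19.8% of all genes, median 0.42). Beside CYP1A1 these were TIPARP, from 22.4 and 23.3 CPM to 30.98 and 29.97 CPM (0.42, adjusted p = 8.74e-05), and CYP1A2, at under 1 CPM in every library (1.495), whose call was lost without 30 min replicate 2 (adjusted p = 0.119) and without 240 min replicate 1 (adjusted p = 0.146). Of 15 NRF2 targets, which protect against oxidants, 8 rose and 1 fell (53.3% and 6.67%, beside 19.8% and 18.4% of all genes, median 0.19). SRXN1, a sulfiredoxin, went from 88.9 and 84.4 CPM to 195 and 198 CPM (1.18, adjusted p = 2.70e-11), and OSGIN1 (0.92), HMOX1 (0.81) and TXNRD1 (0.67) followed. Of 17 circadian clock genes 6 rose and 4 fell (35.3% and 23.5%, beside 19.8% and 18.4% of all genes, median 0.10), with BHLHE40 at 0.96, TEF at 0.80 and PER2 at 0.55 among the rises and NR1D1, the repressor REV-ERB alpha, among the falls (-0.66). Of 11 CXC chemokines and NF-kappaB feedback genes 3 rose and 2 fell (45.5% called, near the background, median 0.19), with NFKBIE higher (0.56) and TNFAIP3 lower (-0.38) beside CXCL8.

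Of 22 hepatocyte factors and secreted proteins 5 rose, 0 fell and 17 had no call (22.7% called, beside 38.2% of all genes, median 0.0019, and between -0.12 and 0.14 over the alternatives). The rises were in transcription factors, among them CEBPA, from 24.1 and 19.5 CPM to 41.9 and 38.9 CPM (0.88, adjusted p = 2.67e-07), FOXA1 (0.36), HNF4A (0.36) and FOXA3 (0.35), while ALB and the other secreted proteins of the list had no call. Of 17 endoplasmic reticulum chaperones and unfolded protein response genes 6 rose and 2 fell (35.3% and 11.8%, beside 19.8% and 18.4% of all genes, median 0.08), with SDF2L1 (0.68) and MANF (0.36) higher. Of 15 genes of PPARA, fatty acid oxidation and ketogenesis 1 rose and 3 fell (6.67% and 20%, beside 19.8% and 18.4% of all genes, median -0.12). BDH1 was lower (-0.70) and PLIN2 higher (0.27), and the share that fell was close to that of all genes. Of the 7 tested markers of other cell types 1 fell, ACTA2 (-0.47). Of 8 reference genes 1 rose, ACTB (0.29), and 2 fell, among them RPLP0 (-0.15). The share called was 14.3% of the markers and 37.5% of the reference genes, beside 38.2% of all genes. The call of RPLP0 was lost without 30 min replicate 1 (adjusted p = 0.1197) and without 240 min replicate 2 (adjusted p = 0.0796), and with limma on TPM. Of the genes named with the lists above, ACTA2, ACTB, BAMBI, CCND1, CYP1A2, ETV5, FOSL2, FOXA1, FOXA3, FOXO1, HNF4A, MANF, NFKBIE, PC, PER2, PLIN2, RHEB, RPLP0, SKIL, SPRED2, TIMM22, TIPARP, TNFAIP3 and TOB1 had no call with ERCC scaling.

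**Figure D5:**
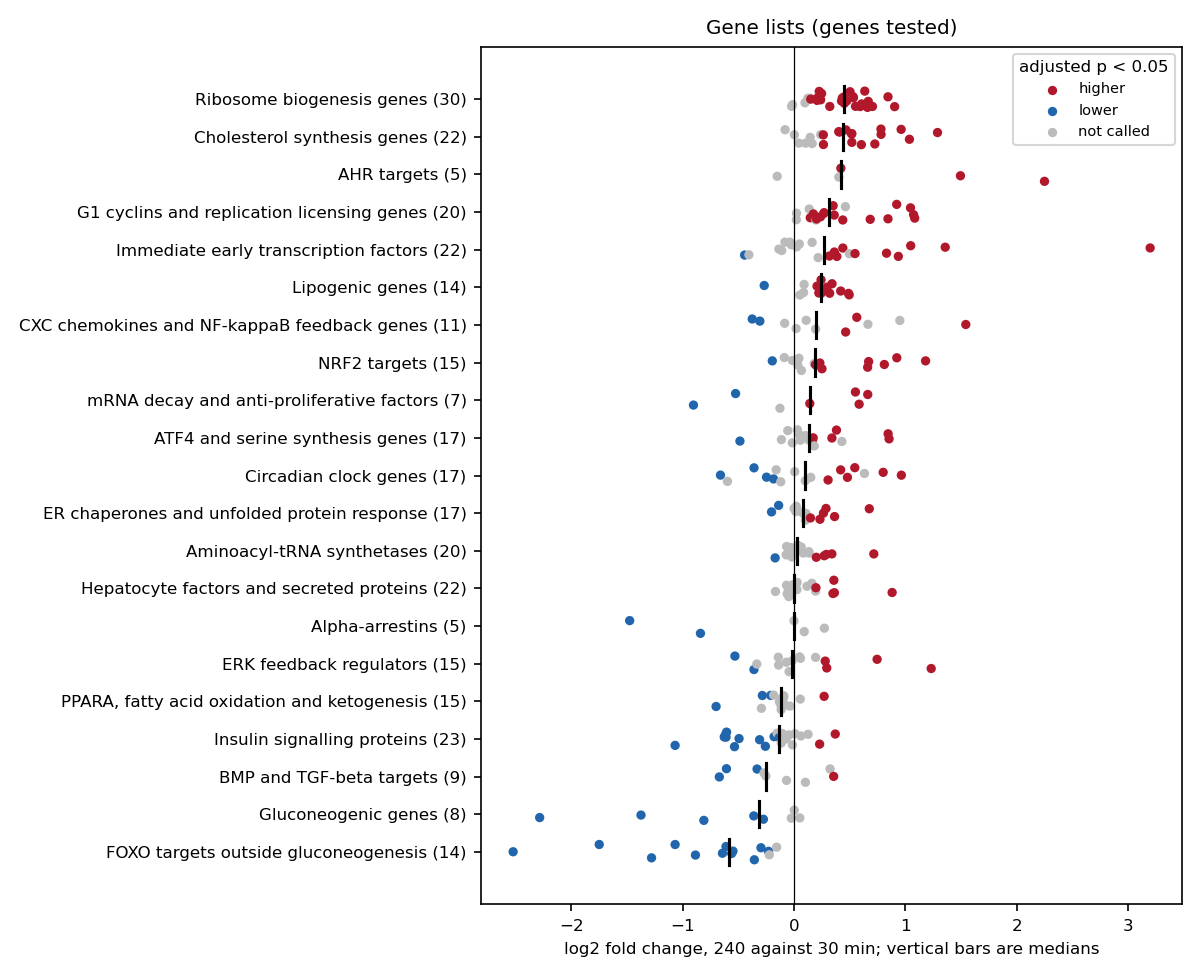
Log2 fold change between 30 and 240 min of the tested members of 21 gene lists, 1 point per gene, red for higher, blue for lower at an adjusted p-value under 0.05 and gray for no call, with the median of each list as a black bar. FOXO targets have the lowest median (-0.59), and ribosome biogenesis (0.45) and cholesterol synthesis genes (0.44) the highest.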

How the data were processed

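RNA was measured by RNA-seq at 0, 5, 10, 30 and 240 min, 2 replicates each. The authors trimmed single-end reads (Trim Galore 0.6.4), aligned them to hg19 (STAR 2.6.1d), counted them per gene as reverse-stranded (featureCounts 1.6.4) and deposited raw counts, with StringTie TPM tables beside them. They marked duplicates, whose removal is not stated. The protocol text of the labels appears to be exchanged between the RNA-seq and ChIP-seq samples. The ChIP-seq peaks were not used.

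The 92 ERCC spike-in rows (1.59% to 2.36% of counts) were left out. Counts were fitted with edgeR 4.0.16 in R 4.3.3 (TMM, filterByExpr by time, quasi-likelihood test, 10 libraries in 1 model, no replicate block), with calls at a Benjamini-Hochberg adjusted p-value under 0.05. Fold changes are edgeR's, and CPM are counts per 1000000 after TMM. Genes named are the 12 largest rises and falls among called genes averaging 5 CPM or more whose replicates did not overlap, the early genes, called members of 23 lists, and FASN, SREBF1, TIMM22, PCK1, INSR, EGR1 and RPLP0. MYC, ATF4, SESN3 and BNIP3, list members with no call, were named after their values were seen. Some genes that count in the totals are not reported here by name. The comparison, members, lists and tests were chosen with earlier results of these data known. Promoters came from RefSeq tables, and figures were drawn with matplotlib 3.10.9. Alternatives were DESeq2 1.42.0, limma 3.58.1 on log2(TPM) with a pseudocount of 1 or 0.1, a minimum mean TPM of 1, other filters, normalizations and models, thinning, and each replicate left out. The edgeR step was tested on simulated data.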

Additional observations from a re-analysis of the deposited data

How the results depend on the processing

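Of 160 genes followed over 13 alternatives with all libraries and 10 fits without 1 library, 141 were called, of which 74 kept their call under all 13, 123 under all 10, and 0 changed direction. Scaling by ERCC spike-ins moved the counts most, to 572 genes higher and 344 lower (62.4% of calls higher, in place of 51.8%). With it, the 46 early genes split into 3 that grew, 11 that reverted and 32 with no call, and against 5 min into 10 in the same direction, 3 opposite and 33 not called, and the 19 genes of 10 min into 2, 7 and 10. Genes past 1 on the log2 scale numbered 320, and 203 with at least 10 counts in every library, 116 with limma on log2(TPM + 1) and 136 with the same limma setting on genes averaging 1 TPM or more. The cause of these shifts was not tested. Under the other 12 alternatives 2073 to 3038 genes were higher and 1911 to 2665 lower, and in the fits without 1 library 2000 to 2743 and 1947 to 2577, with 9 to 12 of the 46 early genes growing and 16 to 21 reverting. A lone library in such a fit is assumed to vary like the other times. In every setting the early genes stayed those of the main fit, and only their later calls were recounted. Their early calls at 30 or 10 min against 0 min were not repeated. Some of these lay near the threshold, such as ZNF3 and SRSF6 at 30 min (adjusted p = 0.0471 and 0.0469, quasi-likelihood test).

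Changes of sign occurred in genes with no call. They were FOS (0.00011) and RAPGEF5 (0.0078) with upper-quartile normalization, and in the fits without 1 library FOS (-0.18 to 0.089), RAPGEF5 (-0.051 to 0.011), DLK1 (-0.092 to 0.40), ID2 (-0.23 to 0.089), IGFBP2 (-0.027 to 0.070), MYC (-0.026 to 0.074) and ATF4 (-0.0058 to 0.083).

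Replicates share only a number. The deviations of same-numbered libraries from their group means correlated at -0.26 to 0.20 between times (0.19 between 30 and 240 min, over 0.1 in 4 of 10 pairs of times). With a replicate block 2826 genes were higher and 2651 lower, 326 past 1, and the early genes kept the same counts, 12 grown, 20 reverted and 14 not called, with 23, 10 and 13 against 5 min and 4, 12 and 3 for those of 10 min.

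Each time has 2 libraries, so 1 unusual library cannot be told from its partner. Genes under the filter on low counts, such as PDK4 and INSIG1 of the lists, were not tested.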
